A study of Mus musculus with 12 samples.

Results

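The gene expression profile of wild-type recall plasma cells is described here from 6 of the 12 arrays of the series, the samples labelled wild type (Zbtb32 +/+), without any comparison between genotypes. The other 6 arrays, from Zbtb32-/- cells, were not used here. The study moved spleen cells of immunised donors (NP-CGG, the hapten NP on a carrier protein) into recipients of the other CD45 allele, boosted the recipients with NP-CGG, and took plasma cells from the marrow 7 days later. Sorting kept donor-derived (CD45.2+, CD45.1-) cells that displayed CD138 and bound NP, and removed cells with B220, Ly6g or CD11b on the surface. The transferred splenocytes are not described as separated further, the recipients kept their own blood cells, and the CD45 alleles are what marks donor origin. The title of the series names memory B cells, whereas every sample label gives bone marrow plasma cells. The series text calls the 6 samples biological replicates and names no batch, and how many mice stand behind each sample was not stated there.

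Plasma cells are the end stage of the B lineage and release antibody at a very high rate. Nascent antibody chains enter the endoplasmic reticulum (ER) through the translocon, are folded by chaperones, joined by disulfide bonds and glycosylated, and leave in coated vesicles, while misfolded chains are returned to the cytosol and degraded. The transcription factors Blimp-1 (Prdm1), IRF4 and XBP1 establish this state: Blimp-1 represses genes of the B cell programme, such as Pax5, and XBP1 switches on genes of the secretory pathway.

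All levels are log2 values from RMA, which corrects each array for background. RMA brings the probe intensities of the arrays onto 1 common distribution, then reduces every probe set to a single number. The medians of the deposited probe set values still ran from 6.28 in replicate 3 to 6.43 in replicate 4. A gene was represented by 1 probe set, the one with the highest wild-type mean among those naming that gene alone, which gave 19938 genes. Errors are SDs over the 6 arrays. A percentile places a gene's mean among all 19938 means, whose median was 6.52 and whose 95th percentile was 9.79. Signals of different probe sets depend on their probes as well as on the transcript, so a percentile ranks array signal and not transcript number. The 45 measured genes of unrelated tissues, such as liver, muscle, neuron and sperm genes, had a median of 5.92, and the 95th percentile of their means, 7.01, is called the background level below. The correlation between pairs of arrays across genes ran from 0.938 to 0.987. The mean correlation of an array with the rest was lowest for replicate 2 (0.951) and highest for replicate 3 (0.968), and replicate 2 held the highest value of 25.2% of all genes.

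The 6 plasma cell markers were all above the background level, which 39.2% of all genes exceeded. Jchain, which encodes the chain that links IgM and IgA polymers, had the lowest value 13.63, the median 13.66 and the highest 13.94, and its mean of 13.70 ± 0.12 ranked 3 of all genes. Xbp1 ran from 12.68 to 13.24 with a median of 12.90. Xbp1 ranked 31, and both genes were far above the background level on every array. Sdc1, which encodes the CD138 used in the sort, ran from 10.32 to 11.34 (median 10.93), and Irf4 from 9.95 to 11.06 (median 10.66). Prdm1 had a mean of 9.29 ± 0.58 (8.51, 9.33 and 9.99 as lowest, median and highest), the widest spread of the 6. Tnfrsf17, which encodes BCMA, a receptor for the survival factor APRIL, had a mean of 8.72 ± 0.46 and was the lowest of the markers, at percentile 87.6. Array signal was thus present for all 6 markers, but passing the background level does not by itself identify a cell type. Pax5, a B cell factor, had a mean of 9.68, above those of Prdm1 and Tnfrsf17. The list mean of the 6 markers was 11.38, 11.33 and 11.22 in replicates 1 to 3. It was 10.54, 10.91 and 10.86 in replicates 4 to 6, so the 2 sets did not overlap. Of the 6 genes 5 were lowest in replicate 4, against 15.3% of all genes.

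**Figure D1:**
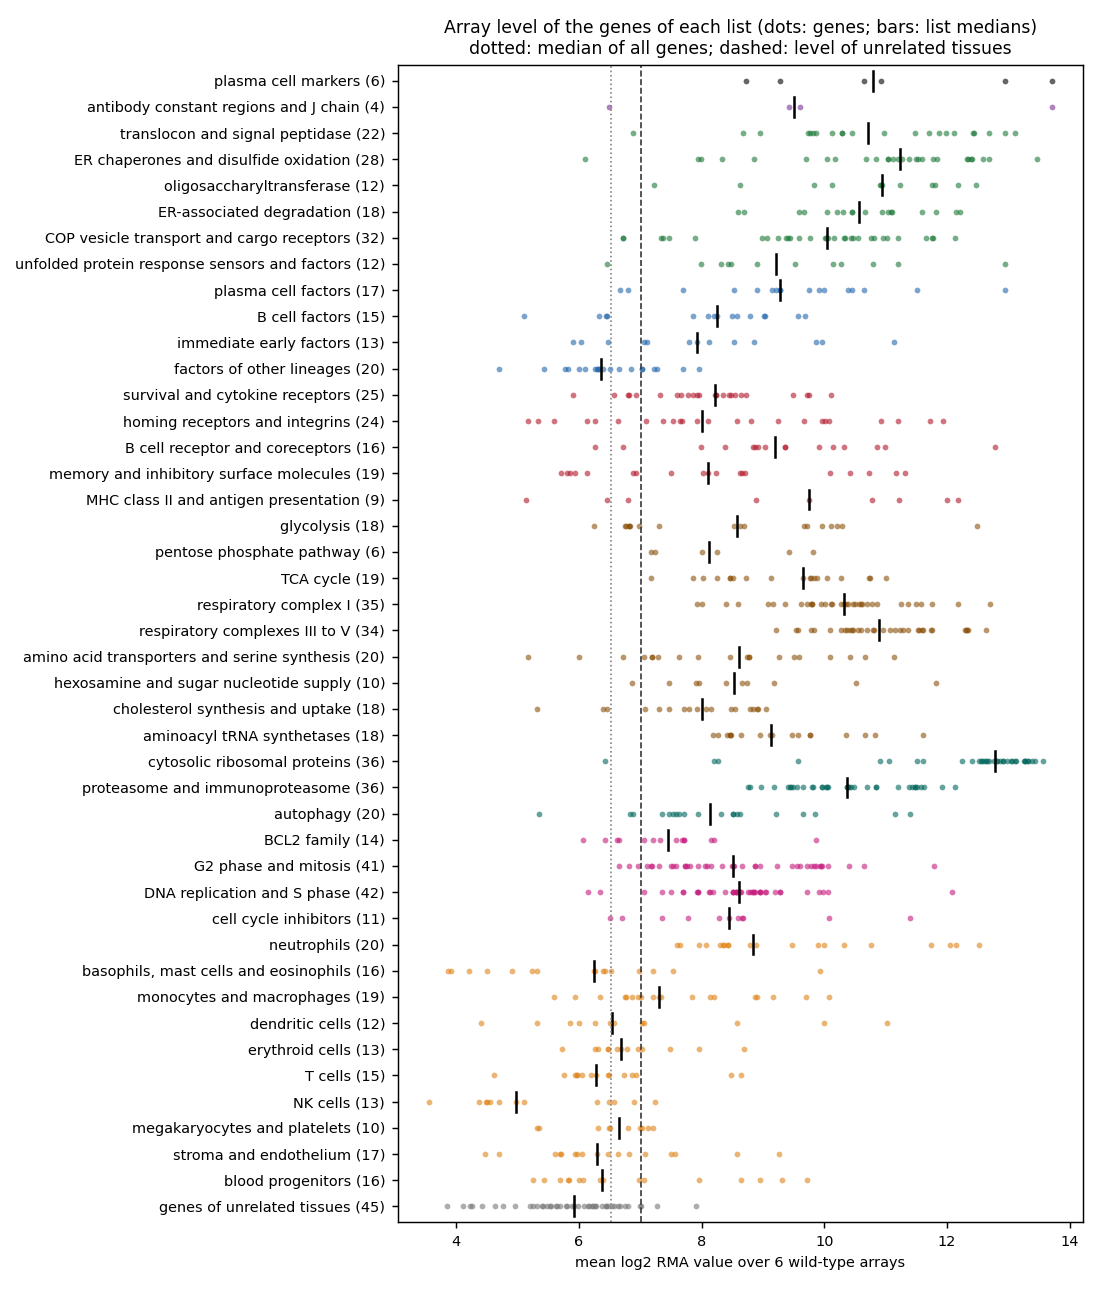
Mean log2 RMA value over the 6 wild-type arrays of each measured gene (dots), by gene list with its number of genes, and the list median (bars); the dotted line marks the median of all genes (6.52) and the dashed line the background level (7.01). Secretion, respiration, proteasome and ribosomal protein lists lie to the right, with list medians from 9.21 to 12.78, and 7 of the 10 lists of other cells have medians between 6.26 and 6.69, near the dotted line.

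Antibody genes were represented unevenly, because few of their probe sets name 1 gene alone. Of 13 constant region and J chain genes listed, 4 were measured by such probe sets, and Igkc, Ighg1, Ighg2b and Ighg2c were not analysed here as single genes. Ighm, the constant region of IgM, was almost level over the arrays, at 9.50, 9.62 and 9.66 (lowest, median, highest). The other 2 probe sets of Ighm gave 9.10 ± 0.47 and 7.73 ± 2.07. The last of them read 11.90 in replicate 2 and between 6.66 and 7.50 elsewhere, so the probe sets of this gene disagree. Igha, the constant region of IgA, was 12.26 in replicate 4 and between 8.37 and 9.54 on the other 5 arrays, and its second probe set was also highest there, at 12.90. Without replicate 4 the SD of the list mean was 0.19 in place of 0.37. Ighg3 had a mean of 6.50 ± 0.39, below the background level.

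Genes of the secretory pathway were among the highest on these arrays. Of the 124 measured genes in 6 secretion lists, 119 (96.0%) were above the background level that 39.2% of all genes exceeded, 86 were among the top 5% of all means, and their median percentile was 97.3 against 50 for all genes. The lists share Xbp1 and Bhlha15 with the list of plasma cell factors. Within the translocon and signal peptidase list (22 genes, median 10.71), Ssr2, a subunit of the translocon-associated complex, had the highest mean, 13.11 ± 0.15. Sec61b, a subunit of the translocon channel itself, ran from 12.50 to 12.97 (median 12.62), and Sec11c, a catalytic subunit of signal peptidase, from 12.25 to 12.54 (median 12.44). Ssr4 and Spcs2 were at 12.43 ± 0.31 and 11.70 ± 0.20. The paralogs parted: Sec11a, the other catalytic subunit, had a mean of 10.12 ± 0.68, from 8.90 in replicate 2 to 10.79 in replicate 3. Sec61a2, the second form of the channel's large subunit, had a mean of 6.89 and was the list's only gene below the background level.

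Among 28 ER chaperones and disulfide oxidation enzymes, 27 were above the background level and the median was 11.24. Hsp90b1, the ER member of the HSP90 family, ranked 9 of all genes and was steady, with 13.31, 13.44 and 13.57 as lowest, median and highest. Mzb1, a cofactor of Hsp90b1 in B lineage cells, had a mean of 12.69 ± 0.27, and the disulfide isomerase Pdia4 12.59 ± 0.20. The other Pdia4 probe set read 8.66 ± 0.93. Hspa5, which encodes BiP, the chaperone that holds unassembled heavy chains, ran from 12.02 to 12.59 (median 12.36). The isomerases P4hb and Txndc5 were at 11.12 ± 0.31 and 11.27 ± 0.29. Ero1b, an oxidase that recharges the isomerases, stood lower at 8.86 ± 0.38, and Pdia5 was at 6.11 ± 0.15, below the background level. Txndc11 varied most in this list, from 9.77 to 11.48.

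The promoters of these genes are shown because the ER stress response element (ERSE), which ATF6 and XBP1 are known to bind, was found in 10 genes of the secretion lists, 8 of them chaperones. The windows were the 250 bases before the gene start in RefSeq (GRCm38.p6) and a shorter stretch after it. They were searched on both strands, and 101 of the 124 secretion genes had one. The counts take in matches anywhere in the window, but only matches wholly before the start are shown. The motif was CCAAT, 9 bases of any kind, then CCACG. It lay in the windows of 8 of 24 chaperone genes (33.3%), in 2 of 14 genes of ER-associated degradation, and in 37 of 27025 genes in all (0.137%). Among the 6371 genes above the background level with a window, 12 (0.188%) held it. None of the windows of the translocon (15 genes), oligosaccharyltransferase (10), vesicle (27), unfolded protein response (11), complex I (32), proteasome (30) or unrelated-tissue (36) lists did. Each line gives the motif in capitals with 20 bases on either side, in the direction of transcription, and a motif on the opposite strand reads as its reverse complement, CGTGG first.
Hspa5, chr2:34772005-34772063, plus strand: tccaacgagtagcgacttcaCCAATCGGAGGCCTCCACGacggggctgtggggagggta
Hsp90b1, distal, chr10:86705618-86705676, minus strand: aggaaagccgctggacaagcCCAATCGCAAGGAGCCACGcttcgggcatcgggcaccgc
Hsp90b1, proximal, chr10:86705513-86705571, minus strand: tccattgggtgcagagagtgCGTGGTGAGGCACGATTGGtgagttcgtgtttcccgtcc
Pdia6, chr12:17266471-17266529, plus strand: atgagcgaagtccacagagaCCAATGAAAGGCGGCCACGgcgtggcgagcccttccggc
Dnajc3, chr14:118937807-118937865, plus strand: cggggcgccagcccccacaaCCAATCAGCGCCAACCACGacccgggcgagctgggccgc
Creld2, chr15:88819500-88819558, plus strand: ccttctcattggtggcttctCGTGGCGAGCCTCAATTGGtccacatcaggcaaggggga
Syvn1, chr19:6046512-6046570, plus strand: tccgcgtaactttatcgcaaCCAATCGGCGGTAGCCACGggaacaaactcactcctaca
Ero1b, chr13:12565662-12565720, plus strand: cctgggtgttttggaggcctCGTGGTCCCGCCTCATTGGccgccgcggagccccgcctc
The motif ended 47 bases before the start in Hspa5 and 26 bases before it in Syvn1, and began 212 bases before it in Hsp90b1, whose window held 2 copies. The array levels of these genes ranged from 8.86 for Ero1b, through 11.03 for Syvn1 (a ubiquitin ligase of the ER membrane), 11.04 for Dnajc3 and 11.38 for Pdia6, to 12.34 for Creld2 and 13.46 for Hsp90b1. Canx, Calr and Derl3 also held the motif. The other 16 chaperone genes with a window had no match, which says only that these letters are not in this window, and a match shows neither binding nor use.

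Another motif, ERSE-II (ATTGG, 1 base of any kind, CCACG), lay in 3 of the 101 secretion windows and in 12 of all 27025 (0.044%). It is shown for Herpud1, a scaffold of ER-associated degradation with a mean of 12.14 ± 0.50.
Herpud1, chr8:94386357-94386407, plus strand: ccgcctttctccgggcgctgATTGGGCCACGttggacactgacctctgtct

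The short core of the unfolded protein response element, TGACGTGG, had a different distribution. It lay in 10 of the 101 secretion windows (9.90%) and in 193 of all 27025 (0.714%). The vesicle transport list held 6 of those 10, out of 27 windows (22.2%), and the list had no ERSE. Both motifs contain CCACG on one strand, so they share letters. They are shown for a vesicle gene of high signal, a chaperone and the vesicle gene with the largest spread.
Arf1, chr11:59228219-59228266, minus strand: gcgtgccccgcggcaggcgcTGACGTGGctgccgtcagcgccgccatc
Txndc5, chr13:38528025-38528072, minus strand: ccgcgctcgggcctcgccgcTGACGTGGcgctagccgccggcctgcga
Kdelr3, chr15:79516358-79516405, plus strand: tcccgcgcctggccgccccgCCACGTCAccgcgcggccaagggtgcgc
Arf1, the GTPase that recruits the COPI coat, had a mean of 11.77 ± 0.34. Kdelr3, a receptor that returns ER residents from the Golgi, had a mean of 6.73 ± 1.19 and ran from 5.25 in replicate 4 to 8.21 in replicate 3.

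Glycosylation, vesicle transport and degradation genes were also high. All 12 oligosaccharyltransferase genes were above the background level (median 10.93). Krtcap2 and Ostc, accessory subunits, were at 12.48 ± 0.20 and 12.17 ± 0.19. The catalytic subunit Stt3a, of the translocon-bound complex, ran from 10.16 to 11.46 (median 11.01), and Stt3b, of the other complex, from 9.09 to 10.34. Rpn1, a structural subunit, varied most, from 9.13 to 10.61. Tusc3 was lowest at 7.23, and its paralog Magt1 was at 10.91 ± 0.44. Of 32 vesicle genes 30 were above the background level. Tmed10, a cargo receptor, had a mean of 12.13 ± 0.32 (8.23 ± 0.28 from its other probe set), and Lman1, which carries glycoproteins from the ER, 11.20 ± 0.36. Copz1, a subunit of the COPI coat, and Sec24d, a cargo adaptor of the COPII coat, were at 9.76 ± 0.37 and 9.38 ± 0.46, and Sec23a, a COPII coat gene, was lowest at 6.72 ± 1.11. All 18 genes of ER-associated degradation were above the background level. Edem1, which recognises trimmed glycans on misfolded proteins, had a mean of 12.21 ± 0.29. Derl3 and Sel1l, which help move such proteins out of the ER, were at 10.45 ± 0.50 and 9.58 ± 0.45. Derl2 was lowest at 8.60, and Erlec1 had the largest SD of the list, 0.63.

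The unfolded protein response has 3 sensors, and their array levels differed. Atf6 ran from 10.71 to 11.69 (median 11.26), Ern1, which encodes IRE1 and splices the Xbp1 transcript, from 8.83 to 10.23 (median 9.55), and Eif2ak3, which encodes PERK, from 7.41 to 8.54 (median 7.95). Downstream of PERK, Atf4 had a mean of 10.80 ± 0.27 and its target Ddit3, which encodes CHOP, 8.32 ± 0.31. Ppp1r15a, which reverses the PERK signal, had the largest spread of the list, from 7.09 in replicate 4 to 9.56 in replicate 1. Trib3, another gene induced through ATF4, was at 6.46 ± 0.14, below the background level. The array cannot separate the spliced from the unspliced Xbp1 transcript here.

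The secretion genes varied between the samples together. The highest value lay in replicates 1 to 3 for 123 of the 124 genes, against 53.7% of all genes, and the lowest lay in replicate 4 for 91 of them, against 15.3% of all genes. For 91 genes (73.4%) replicates 1 to 3 were all above replicates 4 to 6, a pattern that 12.4% of all genes showed. For 0 of the 124 genes was it the other way, which 9.92% of all genes showed. This division of the samples is no batch in the labels and was chosen with earlier results of these data known. The list means of vesicle transport were 10.18, 9.93, 10.16, 9.28, 9.63 and 9.47 in replicates 1 to 6, and those of ER-associated degradation 10.94, 10.84, 10.93, 10.07, 10.39 and 10.35. The translocon and chaperone lists varied less, with ranges over the arrays of 0.60 and 0.71 log2 units. In the same samples the summed markers of neutrophils and of monocytes and macrophages were highest in replicates 4 to 6 (values below), and their part in this pattern was not tested. In bulk samples, fewer plasma cells among those sorted and less RNA of a gene per plasma cell cannot be told apart.

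**Figure D2:**
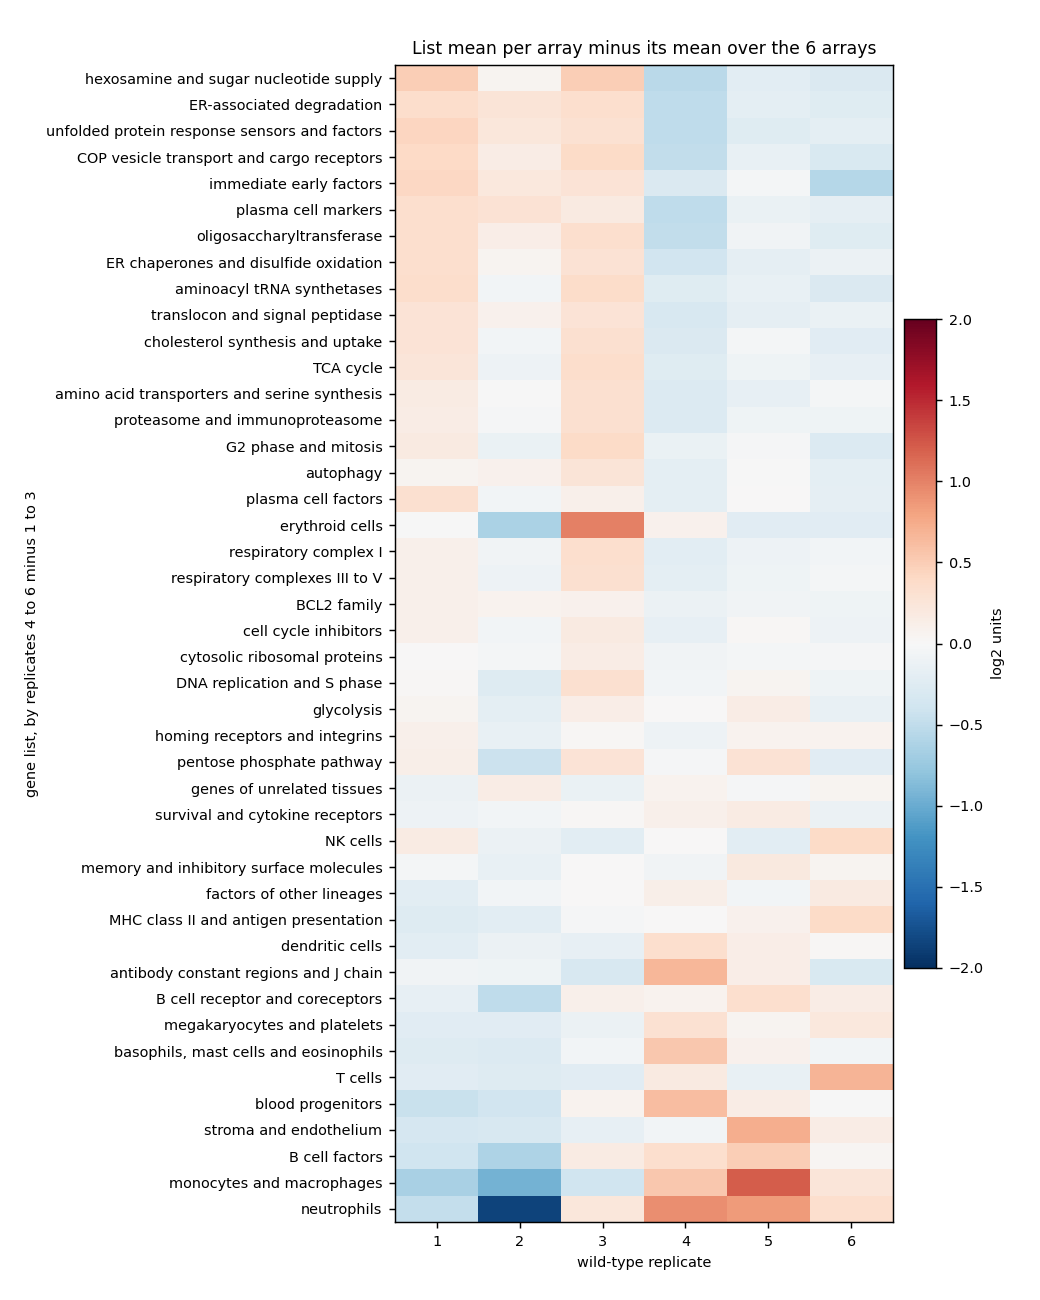
Mean of each gene list on each wild-type array minus its mean over the 6 arrays, in log2 units, with lists ordered by replicates 4 to 6 minus replicates 1 to 3. Secretion lists at the top are red in replicates 1 to 3 and blue in replicate 4, and the neutrophil and monocyte lists at the bottom run the other way, with neutrophil genes lowest in replicate 2 (7.63).

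Transcription factors of the plasma cell state had a median percentile of 92.4. Of these 17 factors 15 (88.2%) were above the background level, against 39.2% of all genes. Besides Xbp1, Irf4 and Prdm1, Ell2, an elongation factor that favours the secreted form of heavy chain transcripts, was high at 11.21, 11.40 and 11.91 (lowest, median, highest). Zbtb20, linked to plasma cell survival, ran from 9.84 to 11.08 (median 10.31), and Pou2af1, a coactivator of antibody genes, from 9.67 to 10.17 (median 9.95). Mef2c, a factor of B cell activation, was at 10.46 ± 0.30. Ikzf3, which encodes Aiolos, had a mean of 9.28 ± 0.25 and Bhlha15, which encodes MIST1, a regulator of secretory cells, 8.90 ± 0.45. Myc ran from 7.87 in replicate 2 to 9.24 in replicate 3. Pou2f2, which encodes OCT2, and Zbtb32, the gene deleted in the arrays not used here, were at 6.81 ± 0.07 and 6.67 ± 0.17, both below the background level. The SD of the list mean was 0.19, or 0.13 without replicate 1 and 0.12 after quantile normalization of the 6 arrays anew.

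Factors of the earlier B cell stages were measured well above the background level too, with more spread. Of 15 such factors 11 (73.3%) were above it, against 39.2% of all genes, and their median percentile was 82.2. Pax5, the factor that keeps B cell identity, was 8.76, 7.90, 9.97, 10.59, 10.68 and 10.19 in replicates 1 to 6. Replicate 2 was lowest and replicates 4 to 6 were highest, opposite to the secretion genes. Ebf1, which specifies the B lineage, ran from 8.16 to 10.31 (median 9.93), and Spib, an ETS factor of B cells, had its lowest value at 6.76 and its median at 9.59. Both were likewise lowest in replicate 2 and highest in replicate 5. Bach2, which delays plasma cell formation, had an SD of 0.67, and Irf8 a mean of 8.58 ± 0.62. Ciita, the activator of MHC class II genes that Blimp-1 represses, was below the background level at 6.46 ± 0.34, and so was Bcl6, the germinal centre factor, at 6.33 ± 0.47. Mitf was lowest at 5.10. The list mean was 7.60, 7.37, 8.16, 8.32, 8.48 and 8.03 in replicates 1 to 6. In the same samples the neutrophil list mean was 9.01, 7.63, 9.71, 10.41, 10.34 and 9.81, and that of monocytes and macrophages 6.99, 6.68, 7.23, 8.18, 8.85 and 7.87. Both were likewise lowest in replicate 2 and higher in replicates 4 to 6, and their part in the B cell factor values was not tested.

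**Figure D3:**
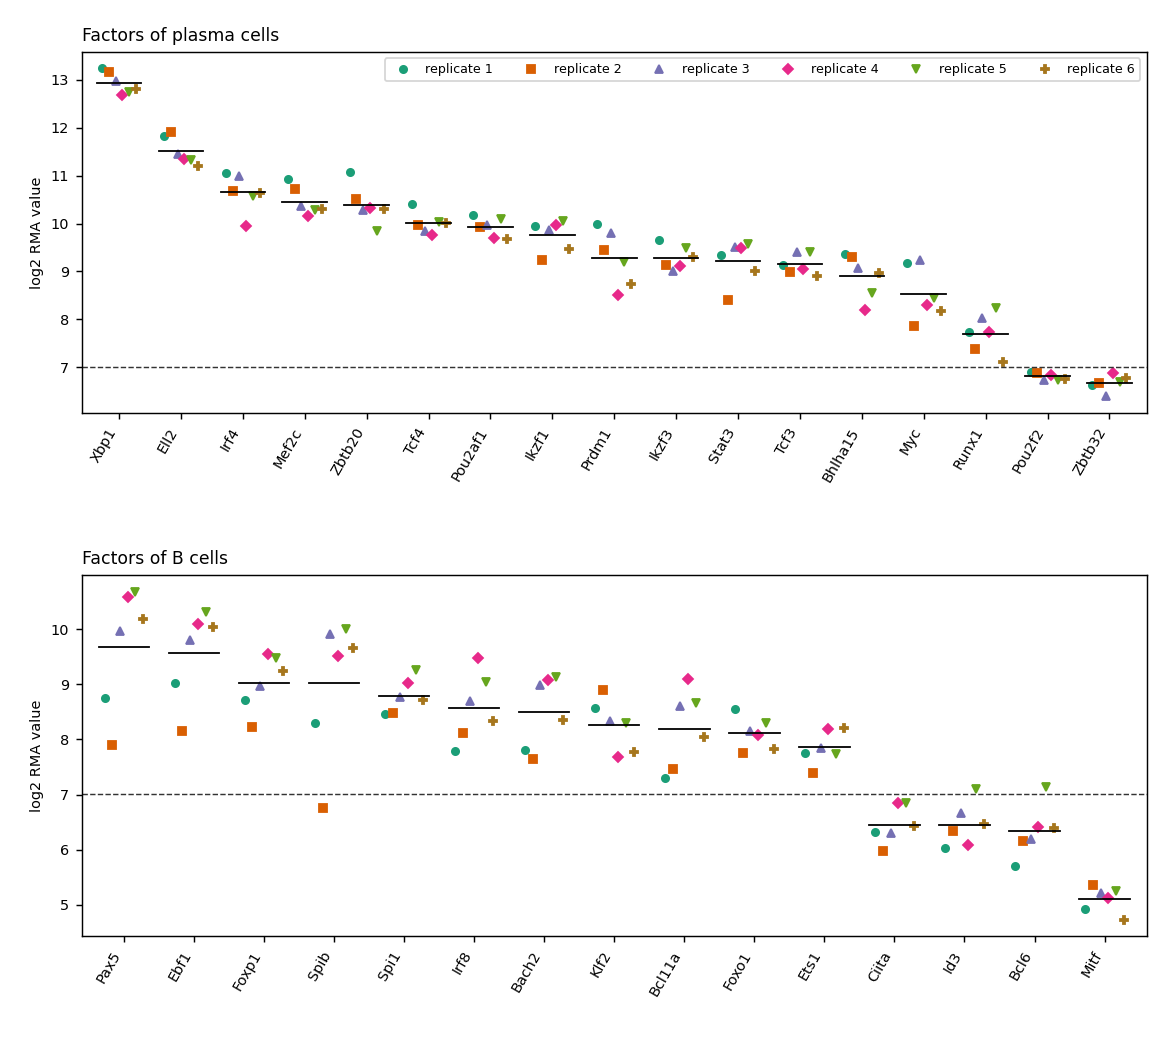
Log2 RMA value of each transcription factor on the 6 wild-type arrays (symbols by replicate), with the mean as a bar and the background level dashed; factors of plasma cells are above and factors of B cells below. Xbp1, Irf4 and Prdm1 are lowest in replicate 4, whereas Pax5, Ebf1 and Spib are lowest in replicate 2 and highest in replicate 5.

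Immediate early factors respond within minutes to signals and to cell handling. Of 13 such genes 10 (76.9%) were above the background level, against 39.2% of all genes. Jun ran from 10.34 to 12.09 (median 11.01), Fos from 8.98 to 10.68 (median 9.85) and Fosb from 8.65 to 11.57 (median 9.78). Junb and Egr1 were at 8.85 ± 0.43 and 7.79 ± 0.69. The list mean was highest in replicate 1 (8.47) and lowest in replicate 6 (7.48), a range of 0.99 log2 units. Factors of other blood lineages had a median percentile of 45.8, and 6 of 20 (30.0%) were above the background level, against 39.2% of all genes. The granulocyte factor Cebpe was highest at 7.96 ± 0.39, while the T cell factor Gata3 and the erythroid factor Gata1 had means of 5.77 and 6.26.

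Receptors for survival factors and cytokines were of moderate signal: 20 of 25 were above the background level, with a median percentile of 81.6. Of the receptors for BAFF and APRIL, Tnfrsf13b, which encodes TACI, ran from 8.97 to 9.88 (median 9.54), and Tnfrsf13c, which encodes the BAFF receptor, from 8.29 to 8.87 (median 8.52). With Tnfrsf17 all 3 receptors of this family were above the background level on every array. The 2 chains of the IL-6 receptor, Il6st and Il6ra, were at 9.72 ± 0.40 and 8.24 ± 0.26, and Cd28 at 8.48 ± 0.40. Il10rb had the highest mean, 10.11 ± 0.41. Il7r, a receptor of lymphoid progenitors and T cells, varied most, from 7.07 in replicate 2 to 9.50 in replicate 4. Cd27 was lowest at 5.90.

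Adhesion and homing receptors parted into high and low members. Itga4, a chain of the integrin VLA-4 that binds VCAM-1 on marrow stroma, ran from 11.69 to 12.43 (median 11.90). Cxcr4, the receptor for the marrow chemokine CXCL12, ran from 11.39 to 12.30 (median 11.66). Cxcr3, a receptor for inflammatory chemokines, was at 10.07 ± 0.34 and Ccr10, a receptor of mucosal homing, at 9.67 ± 0.61. Cd93, which supports plasma cell persistence in marrow, and S1pr1, which guides exit into blood, had means of 9.24 ± 0.24 and 8.81 ± 0.20. In contrast Cxcr5, the follicle homing receptor of B cells, was at 5.34 ± 0.64, below the background level on every array, and Ccr6 was lowest at 5.17. Ccr7, for homing to T cell zones, ran from 6.83 to 7.72 (median 7.51), around the background level. Cd44 and Itgb7, receptors for hyaluronan and for mucosal tissue, were at 8.57 ± 0.22 and 7.65 ± 0.39. Cd9 varied most, from 6.41 to 8.42. Of the 24 genes 18 were above it.

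Of 16 B cell receptor components and coreceptors 14 (87.5%) were above the background level, against 39.2% of all genes. Cd79b and Cd79a, the signalling chains of the B cell receptor, were steady at 10.15 ± 0.10 and 9.36 ± 0.13. Ms4a1, which encodes CD20, ran from 8.63 to 8.89 in replicates 1 to 5 and was 9.38 in replicate 6. Cd22, an inhibitory coreceptor, ran from 6.01 in replicate 2 to 9.15 in replicate 6 (median 8.39), while Cr2, the complement receptor of B cells, and Fcer2a, which encodes CD23, had means of 6.26 and 6.72. Cd24a was highest at 12.78 ± 0.08. The SD of the list mean was 0.29, and 0.18 without replicate 2. Of the MHC class II list, which Blimp-1 is known to lower through Ciita, 6 of 9 genes (66.7%) were above the background level. Cd74, the invariant chain, was at 12.18 ± 0.29, H2-Aa at 11.21 ± 0.47, and H2-Ab1 nearly constant at 11.91 to 12.05. H2-Ob, of the peptide-loading modulator, had a mean of 8.88 ± 0.67, and H2-Ea was lowest at 5.14. H2-Aa was highest in replicate 6 (12.03), and the SD of the list mean was 0.23, or 0.15 without that array.

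Of 19 memory and inhibitory surface molecules 12 (63.2%) were above the background level, against 39.2% of all genes. Ly6d and the plasma cell receptor Slamf7 were high, at 11.32 ± 0.14 and 10.73 ± 0.24. Cd274, which encodes PD-L1, had a mean of 8.24 ± 0.49. Cd80, a costimulatory ligand used as a marker of memory B cells, was at 7.50 ± 0.61 (6.9 ± 0.5 from its other probe set). The other such markers, Pdcd1lg2 (PD-L2) and Nt5e (CD73), were at 5.71 ± 0.29 and 6.13 ± 0.31, and Lag3, a marker of regulatory plasma cells, at 5.81 ± 0.15. These 3 were below the background level on every array. Lilrb4a varied most, from 6.31 in replicate 1 to 10.34 in replicate 5, and Ctla4 ran from 7.02 in replicate 5 to 9.88 in replicate 2. The list mean was nearly level, with an SD of 0.115, or 0.0748 without replicate 5, but its single genes were not. Their median SD was 0.47, against 0.24 for all genes.

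Genes of respiration had high array signal. All 35 genes of complex I and all 34 of complexes III to V were above the background level, with median percentiles of 96.9 and 98.2. Ndufa1, a small subunit of complex I, had the highest mean of its list, 12.70 ± 0.22, and Cox6a1, a subunit of cytochrome oxidase, 12.64 ± 0.10. The electron carrier Cycs ran from 11.36 to 11.71 (median 11.54), Cox4i1 from 11.50 to 12.12 (median 11.70), and Atp5b, the catalytic subunit of ATP synthase, from 11.39 to 11.95 (median 11.74). Other probe sets of Cycs read 11.29 ± 0.15 and 5.8 ± 0.5. Replicate 3 held the highest value for 29 of the 35 and 33 of the 34 genes, against 16.3% of all genes. Erythroid markers were highest in the same sample (list mean 7.90, 12 of 13 genes), and their part in this was not tested. The SDs of the 2 list means were both 0.19, and both were 0.11 without replicate 3 and 0.08 after quantile normalization anew. Ndufa4 and Ndufv1 were at 11.36 ± 0.12 and 9.72 ± 0.28, and the lowest members were Ndufa7 at 7.92 and Atp5g2 at 9.21. All 19 genes of the TCA cycle were above the background level (median percentile 94.4), with Idh3g highest at 11.01 ± 0.19, Mdh2 at 10.73 ± 0.24, Cs at 9.83 ± 0.14 and Dld lowest at 7.18 ± 0.62.

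Of the 18 glycolysis genes measured, 11 (61.1%) were above the background level, against 39.2% of all genes. Their median percentile was 86.0. Aldoa and Tpi1 were at 10.29 ± 0.15 and 10.12 ± 0.17, Ldha and Pkm at 9.72 ± 0.17 and 9.67 ± 0.23. The glucose transporter Slc2a1 was at 8.53 ± 0.47, and Slc2a3, another one, ran from 6.60 in replicate 2 to 10.17 in replicate 5, the largest spread of the list. Hk2 was at 6.83 and Ldhb lowest at 6.26. Hk1 reads 12.49 from the chosen probe set and 6.75 from its other one, so its level is not settled. Gapdh, Eno1 and Gpi1 were not analysed here as single genes, and probe sets that name Gapdh among several genes read up to 13.11 ± 0.08. The pentose phosphate genes, led by Taldo1 at 9.82 ± 0.33 and including Tkt at 8.25 ± 0.22, were all 6 above the background level.

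Supply routes for antibody synthesis differed in level. Among amino acid genes, Slc1a5, a glutamine transporter, was steady at 11.03 to 11.26. Shmt2 and Phgdh, of serine and glycine metabolism, had means of 10.66 ± 0.24 and 10.09 ± 0.34. The 2 chains of the large neutral amino acid transporter, Slc3a2 and Slc7a5, were at 10.42 ± 0.44 and 9.50 ± 0.40. Asns, which makes asparagine, was at 8.75 ± 0.38. Slc7a11, the cystine transporter, was at 5.18 ± 0.31, below the background level on all arrays. All 18 aminoacyl tRNA synthetase genes were above the background level, from Cars at 8.19 to Nars at 11.61, with Gars at 10.35 ± 0.29 and Wars at 9.11 ± 0.52. In the list of sugar donor supply for glycans, Slc35b1 was highest at 11.81 ± 0.32. It encodes a transporter of the ER membrane, not an enzyme that makes sugar donors. Gfpt1, the entry enzyme of the hexosamine route, ran from 7.63 in replicate 4 to 8.92 in replicate 3. Uap1 and Pgm3, later enzymes of that route, were at 7.96 ± 0.41 and 7.46 ± 0.83. That list had a range over the arrays of 1.03 log2 units, and all 10 of its genes were highest in replicates 1 to 3, against 53.7% of all genes. Cholesterol genes were lower (median percentile 78.5), with Scap highest at 9.05, Sqle at 7.71 ± 0.40, Hmgcs1 at 6.46 ± 0.48 and Idi1 lowest at 5.33.

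Ribosomal protein genes were the highest list of all: 35 of 36 were above the background level, with a median of 12.78 and a median percentile of 99.8. Of the 100 genes with the highest means 40 were ribosomal protein genes by symbol and 16 belonged to the secretion lists. Rps6 ran only from 13.40 to 13.46 and Rplp0 from 13.12 to 13.46. The list mean had the smallest SD of the 44 lists, 0.08, and 0.03 without replicate 3 or after quantile normalization anew. In replicate 3 the list mean of 12.37 lay above the 12.14 to 12.22 of the other arrays. Ribosomal protein genes have many processed copies in the genome, and where they had several probe sets these could differ, as for Rpl27a, from 10.10 to 13.08. Eef1a1, the elongation factor that brings tRNA to the ribosome, ranked 2 of all genes at 13.83 ± 0.12. All 36 proteasome genes were above the background level (median percentile 97.0). The catalytic subunit Psmb5 was at 11.58 ± 0.21 and its immunoproteasome counterpart Psmb8 at 10.85 ± 0.23, with Psmb9 at 11.48 ± 0.24 and Psmb10 at 10.84 ± 0.27. Psmd3 varied most, from 7.81 in replicate 4 to 9.46 in replicate 2. The SD of the proteasome list mean was 0.21, and 0.08 after quantile normalization anew. Of 20 autophagy genes 17 (85.0%) were above the background level, against 39.2% of all genes. Gabarap was highest at 11.40 ± 0.05. Map1lc3b was at 11.14 ± 0.23, Sqstm1 at 9.66 ± 0.32 and Atg5, needed by long-lived plasma cells, at 8.57 ± 0.44.

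Genes of cell division were measured clearly above the background level. Of 41 genes of G2 phase and mitosis 38 (92.7%) were above it, and of 42 genes of DNA replication 40 (95.2%), against 39.2% of all genes. Their median percentiles were 85.3 and 86.5. Mki67, a marker of cycling cells, ran from 11.69 to 12.01 (median 11.76), and Pcna, the sliding clamp of DNA replication, from 11.70 to 12.27 (median 12.13). Ccnb2, Cdk1, Plk1 and Top2a had means of 9.96 ± 0.34, 9.84 ± 0.40, 9.79 ± 0.51 and 9.48 ± 0.28. The other Top2a probe set read 4.10 ± 0.14, below the background level. Rrm2, Mcm2 and Tyms, which supply nucleotides or license origins, were at 10.07 ± 0.23, 9.98 ± 0.27 and 9.19 ± 0.41. Mcm5 was at 9.04 ± 0.15, and Orc6, of the origin recognition complex, ran from 6.27 in replicate 2 to 8.85 in replicate 3. Prc1 and Orc1 were the lowest members, at 6.66 and 6.16. Replicate 3 held the highest value for 29 of the 41 mitosis genes and 21 of the 42 replication genes, against 16.3% of all genes. The SD of the replication list mean was 0.19, or 0.12 without replicate 3. That of the mitosis list was 0.24, and 0.13 after quantile normalization anew. Erythroid markers were also highest in replicate 3 (below), and their part in this was not tested. Of 11 cell cycle inhibitors 9 (81.8%) were above the background level, against 39.2% of all genes. Among them Cdkn1b, which encodes p27, had a mean of 11.40 ± 0.22 from the chosen probe set and 8.15 ± 0.39 from its other one, and Cdkn2c, needed for plasma cell formation, 7.77 ± 0.38.

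Of 14 BCL2 family genes 10 (71.4%) were above the background level, against 39.2% of all genes. Mcl1, on which plasma cell survival is known to depend, was highest at 9.44, 9.94 and 10.09 (lowest, median, highest). Bcl2 and Bcl2l1, the other protective members measured most often in lymphocytes, were at 7.71 ± 0.23 and 7.21 ± 0.53. The death-promoting Bcl2l11, which encodes BIM, was at 6.66 ± 0.30, below the background level. Among the 14 measured genes Mcl1 was highest on every array. Bax, a death-promoting member, was not analysed here as a single gene.

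Markers of other cells were present at very different levels. Of 147 genes in 10 such lists 59 (40.1%) were above the background level, close to the 39.2% of all genes, and their highest value lay in replicates 4 to 6 for 76.9%, against 46.3% of all genes. Some of these genes also belong to other lists here, such as Il7r, Cd28, Irf8 and Tcf4, which B lineage cells express too.

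Neutrophil genes stood out. All 20 were above the background level, including all 9 defining markers, with a median percentile of 88.8. S100a9, a calcium-binding protein that neutrophils make in bulk, ran from 11.39 to 13.37 (median 12.68), and Ngp, a granule protein, from 9.15 to 13.01 (median 12.57). S100a8, the partner of S100a9, had a mean of 12.15 ± 0.99 and the iron-binding protein Ltf 10.33 ± 1.80. Camp, which encodes cathelicidin, was 7.94 in replicate 2 and between 11.70 and 12.98 elsewhere. Ly6g and Itgam, which encodes CD11b, were at 7.65 ± 1.06 and 8.44 ± 1.25, although cells with Ly6g or CD11b on the surface were removed by the sort. The list mean was 9.01, 7.63, 9.71, 10.41, 10.34 and 9.81 in replicates 1 to 6. Its SD of 1.04 was the largest of the 44 lists and was 0.57 without replicate 2, the array with the lowest value of 14 of the 20 genes and of 14.4% of all genes. Elane and Mpo, which encode granule enzymes of early granulocyte stages, had another order. Both were highest in replicate 1, at 9.82 and 10.33, and lowest in replicate 2.

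Monocyte and macrophage genes had 12 of 19 members (63.2%) above the background level, against 39.2% of all genes. Among the 12 were 5 of 6 defining markers. Lyz2, which encodes lysozyme, ran from 7.63 to 11.09 (median 9.97), C1qa, a complement chain of macrophages, from 7.42 to 11.09 (median 9.10), and Vcam1, the ligand of VLA-4, from 7.12 to 9.97 (median 8.07). Cd68 and Csf1r, a lysosomal protein and the receptor for M-CSF, were at 8.90 ± 0.61 and 7.35 ± 0.71, and both were highest in replicate 5. Adgre1, which encodes F4/80, was below the background level. The list mean was 6.99, 6.68 and 7.23 in replicates 1 to 3 and 8.18, 8.85 and 7.87 in replicates 4 to 6, with no overlap, and replicate 5 held the highest value of 17 of the 19 genes, against 12.3% of all genes. For 14 of them replicates 4 to 6 were all above replicates 1 to 3, a pattern of 9.92% of all genes. Cybb, which B lineage cells express as well, was steady at 10.07 ± 0.15.

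In several other lists the highest mean lay in 1 array. Erythroid genes had 4 of 13 members (30.8%) above the background level, which 39.2% of all genes exceeded. Their list mean was 7.90 in replicate 3, against 6.25 to 6.97 elsewhere. Alas2, the heme synthesis enzyme of red cells, was 8.02 there and at most 6.71 on the other arrays. Of the 13 genes 12 were highest in replicate 3, against 16.3% of all genes. The list's SD was 0.55, and 0.27 without replicate 3. Car1, a carbonic anhydrase of red cells, had another order, highest in replicate 4 at 10.36. The globin probe sets, which name several genes, were highest in replicate 3 as well, but replicates 1 and 5 were not far below: a beta globin set read 13.09, 10.66, 13.68, 11.80, 12.66 and 10.99 in replicates 1 to 6. Klf1, an erythroid factor, had a mean of 6.31. T cell genes were highest in replicate 6, with a list mean of 7.17 against 6.24 to 6.68, and the SD was 0.37, or 0.18 without that array. Cd3d and Cd3g, chains of the T cell receptor complex, were 7.80 and 7.78 in replicate 6 and at most 5.93 and 6.04 elsewhere. None of the 5 measured defining T cell markers had a mean above the background level, and Cd3e, Cd4 and Cd8a had means of 6.73, 6.20 and 6.05.

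A pair of basophil proteases stood apart in replicate 4. That array held the highest value of 6 of the 16 genes of basophils, mast cells and eosinophils, against 18.2% of all genes. Mcpt8, a basophil protease, was 9.66 there and between 5.42 and 5.97 on the other 5 arrays, and Prss34, another, was 8.30 against 5.63 to 5.92. The mast cell protease Cpa3 was at 4.50, and Fcer1a, of the IgE receptor of basophils and mast cells, at 3.92 ± 0.07. Cd200r3, a receptor of the same cells, was lowest at 3.87. These 3 genes were below the background level on every array, and of the 6 defining markers 1, Prg2, had a mean above it. Prg2, a granule protein of eosinophils, ran from 9.04 to 11.08 (median 9.90), and Epx, the eosinophil peroxidase, was at 5.23. The list's SD was 0.30, and 0.15 without replicate 4, and its median percentile was 42.9, or 29.8 without that array. Stromal and endothelial genes marked replicate 5, with a list mean of 7.22 against 6.16 to 6.64, and an SD of 0.40, or 0.20 without it. There Cxcl12, the ligand of Cxcr4, was 8.52 and the stromal leptin receptor Lepr 5.95, below the background level. NK cell genes had 1 of 13 members (7.69%) above the background level, Nkg7 at 7.24, against 39.2% of all genes. Their median percentile was 15.1. Of 12 dendritic cell genes 5 (41.7%) were above the background level, close to the 39.2% of all genes. Bst2, which B lineage cells express too, was highest at 11.02 ± 0.43, while Siglech, Itgax and Zbtb46 were below that level. Of 10 megakaryocyte and platelet genes 3 (30.0%) were above it, and the platelet chemokine Ppbp ran from 4.52 to 7.17.

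Among 16 genes of blood progenitors 6 (37.5%) had a mean above the background level, close to the 39.2% of all genes, and 3 of the 6 defining ones were among them. Vpreb1 and Igll1, the surrogate light chain genes of pre-B cells, ran from 8.96 to 10.62 (median 9.54) and from 8.25 to 9.86 (median 8.84), both highest in replicate 4 and above the background level on every array. Rag1, of the recombinase that assembles antibody genes, ran from 6.92 to 8.75 (median 8.08). Dntt, the polymerase that adds bases at the joins, was 7.63 in replicate 4 and had a mean of 5.84. The stem cell markers Kit and Cd34 had means of 6.98 and 6.07, below the background level. The list mean was highest in replicate 4 at 7.59 and lowest in replicate 1 at 6.52. Replicate 4 was thus lowest for the plasma cell markers. It was highest for the neutrophil, basophil, dendritic cell, megakaryocyte and progenitor lists, and also for the antibody list (10.47). The part of such other cells in the other values was not tested.

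**Figure D4:**
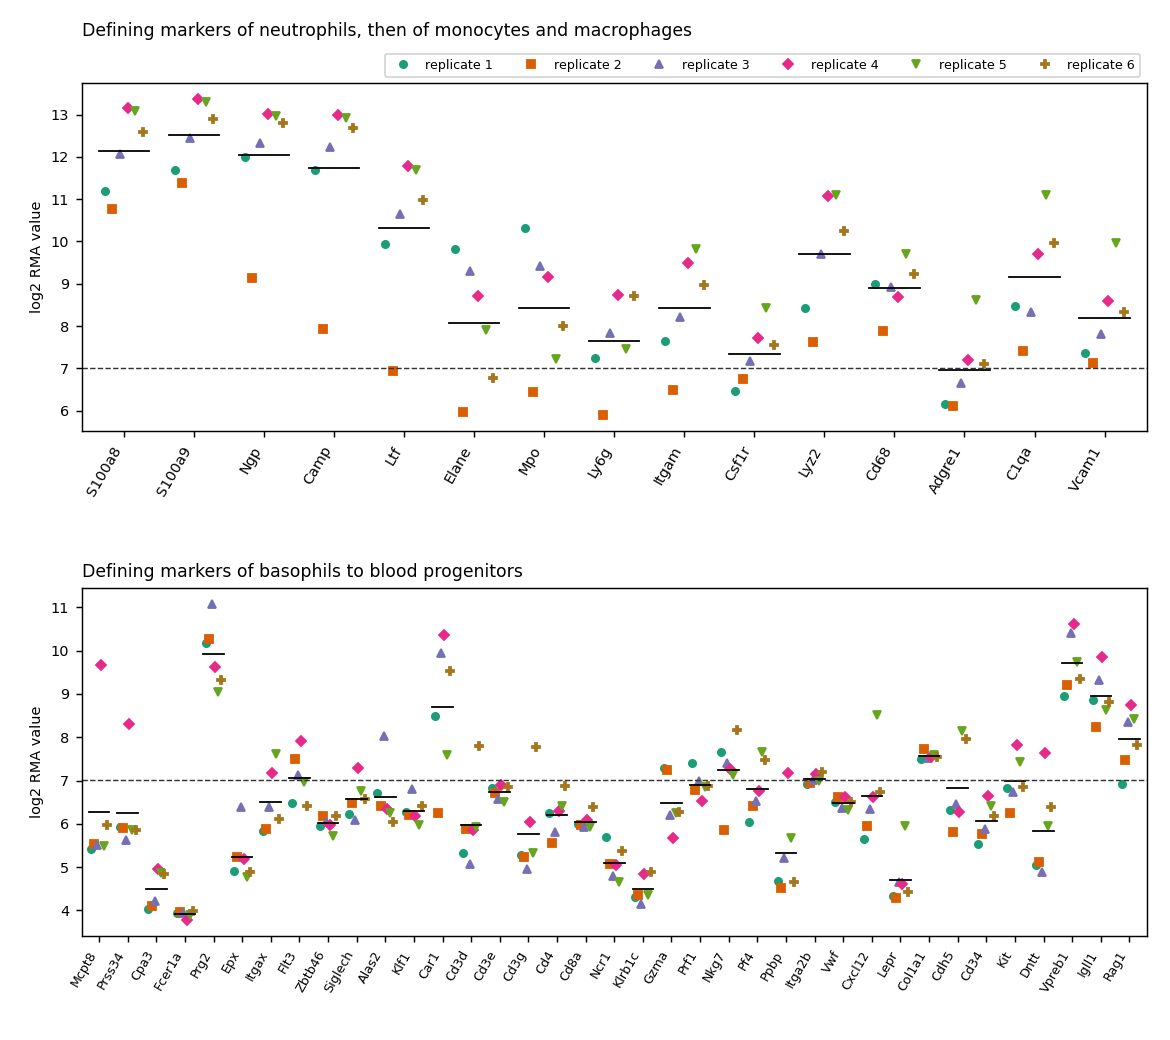
Log2 RMA value of the defining markers of other cell types on the 6 wild-type arrays (symbols by replicate), with the mean as a bar and the background level dashed. Neutrophil markers are lowest in replicate 2, macrophage markers mostly highest in replicate 5, Mcpt8 and Prss34 stand apart in replicate 4, and Cd3d and Cd3g in replicate 6.

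The SD of a gene over the 6 arrays had a median of 0.24 log2 units, with 0.10 and 0.66 as its 5th and 95th percentiles. By level, the median SD was 0.18 in the lowest decile of means, 0.35 in the decile next to the top and 0.29 in the top one. Of the 15 named genes with the largest SD above the median level, Camp, Ltf, Chil3 and Mmp8 are neutrophil genes of the lists here. Chil3, a chitinase-like protein of myeloid cells, ran from 4.44 in replicate 2 to 9.73 in replicate 5. Ccr1, a chemokine receptor of myeloid cells, ran from 4.56 to 9.31, Slc40a1, the iron exporter of macrophages, from 5.39 to 9.86, and Plbd1 reached 10.62 in replicate 5. Kcnma1, a potassium channel gene, had a different pattern, with 10.40 in replicate 2 and at most 6.50 elsewhere, but its other probe set was flat (5.28 ± 0.10, 5.45 in replicate 2). Myo9a has 13 probe sets with means down to 2.91, so its spread from 5.53 to 10.35 rests on 1 of several discordant ones. Lce6a, a skin gene, was 7.78, 8.49 and 8.41 in replicates 4 to 6 and at most 5.03 in replicates 1 to 3.

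At the other end, the 10 smallest SDs were taken from named genes above the median level, so genes of lower signal were left out beforehand. They belonged to genes of high signal such as Ube2d3 (12.71, SD 0.02), Rps6, Rpl4, Rps7 and Rps20, and to genes near the background level such as Lamb2 (6.76, SD 0.03), Slc35e4 and the hormone gene Oxt. By list, the median SD of single genes was 0.09 for ribosomal proteins, 0.19 for respiratory complexes III to V, 0.31 for chaperones, 0.92 for monocytes and macrophages and 1.30 for neutrophils. Secretion genes, with a median SD of 0.36, lay between these, above the 0.24 of all genes.

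**Figure D5:**
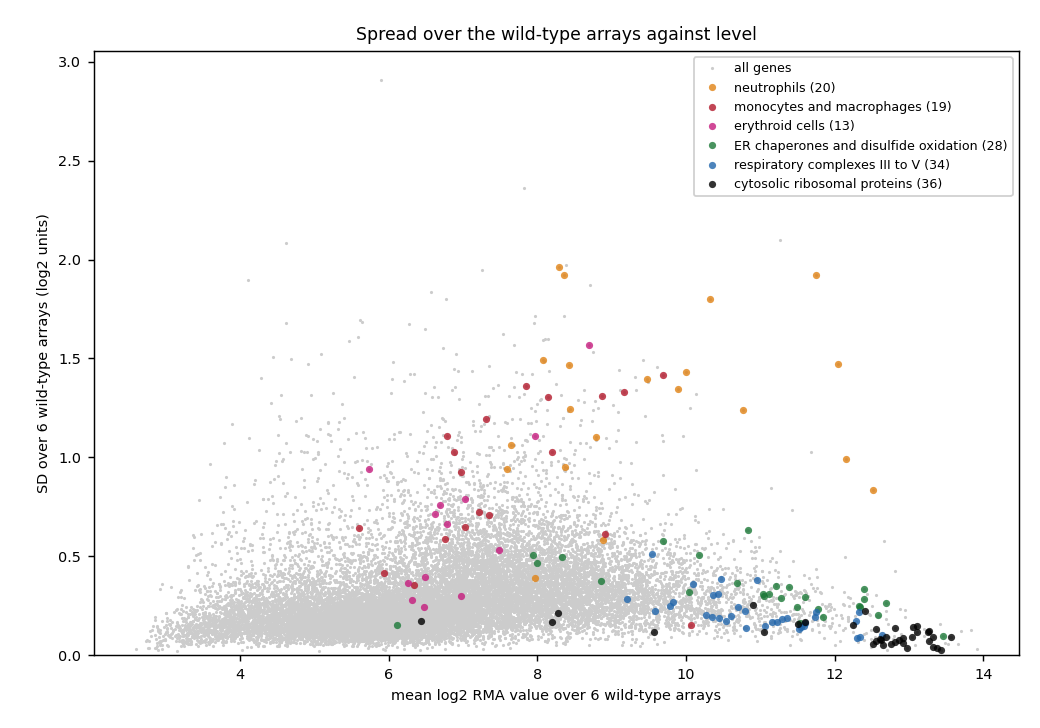
SD over the 6 wild-type arrays against the mean log2 RMA value of each gene, with all 19938 genes in grey and 6 lists in colour. Ribosomal protein genes lie at the lower right with a median SD of 0.09, chaperones somewhat higher at 0.31, and neutrophil genes far above at 1.30. The median levels of these lists differ, at 12.78, 11.24 and 8.83 in that order.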

How the data were processed

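Total RNA of the 6 wild-type samples was measured on Affymetrix mouse gene arrays, 1 sample per array. Per the submitters' processing notes, the authors made the deposited log2 values with RMA in Affymetrix Expression Console. Versions, the genome build and whether all 12 arrays were normalized together are not given in the sources used here. The values were used as deposited: none was missing and no pair of arrays was identical. Arrays carry no read depth, their number limits the precision, and no detection calls were used.

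Of 35556 probe sets, 21789 named 1 gene in the platform annotation, 1621 several and 12146 none, and only the first kind was used for genes. For the 999 genes with several such probe sets the one with the highest wild-type mean was kept. Of 954 list entries 866 were measured, 6 of them through a synonym, and the other 88 were not analysed here. The members and lists were chosen with earlier results of these data known, so they support nothing beyond description. No test between groups was run and no p-value is given.

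Named genes are the 6 markers, the 25 highest genes, the key, highest, lowest and most variable members of each list (any member of lists of up to 20), the 15 largest and 10 smallest SDs above the median level, and genes whose promoter is shown. Predicted genes, small RNAs, receptor families and variable segments were left out of the ranked choices. Promoter windows came from RefSeq (GRCm38.p6). Alternatives were quantile normalization anew, median centring, averaging over all probe sets of a gene, fewer genes in the ranking, other background levels, 1 motif strand, and leaving out arrays. An SD counted as moved when it left the 95% chi-square interval of the SD. Scripts ran in python 3.11.15 with pandas 2.3.3, numpy 2.4.6 and matplotlib 3.10.9, and were tested on simulated data.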

Additional observations from a re-analysis of the deposited data

Results flagged for a closer look

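For 27 of the 366 named genes and list means (7.38%), 1 array lay far from the other 5, by Dixon's ratio of the gap to the range against its 95% critical value. Chance marks about 1 group in 20, and 7.13% of all genes met the same criterion.

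In replicate 2 the low values were Camp at 7.94, Ngp at 9.15 and Chil3 at 4.44 (neutrophil genes), Cd24a at 12.63, Cd80 at 6.32 and Orc6 at 6.27. The high values in that sample were Jchain at 13.94, Kcnma1 at 10.40 and Col1a1 at 7.74. The other Kcnma1 probe set was flat, with 5.45 in replicate 2 and an SD of 0.10 over the arrays. Jchain exceeded the other arrays by little, since these ran from 13.63 to 13.70.

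In replicate 3 the erythroid genes Alas2 and Rhag were high at 8.02 and 7.48, and Epx at 6.40, still below the background level. Slc43a1 at 8.43, Rps15 at 13.50 and the mean of the ribosomal protein list at 12.37 were high there too. In replicate 4 Igha was high at 12.26, and the basophil proteases Mcpt8 and Prss34 were high at 9.66 and 8.30, with the other arrays at most at 5.97 and 5.92.

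In replicate 6 the T cell genes Cd3d, Cd8a and Gata3 were higher than elsewhere, at 7.80, 6.40 and 6.58. So were Eomes, of NK cells and T cells, at 5.26, and Ms4a1 at 9.38. Cd8a, Gata3 and Eomes were still below the background level of 7.01 there. In replicate 5 the stromal genes Cxcl12 and Lepr were high at 8.52 and 5.95, with Lepr still below the background level. In replicate 1 Itga4 was high at 12.43 and Mki67 at 12.01.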

How the results depend on the processing

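No paired analysis was possible because 1 group was described and no comparison between groups was tested. Median centring moved no list value, and the levels of named genes moved only with probe sets averaged (28 of 322). SDs of single named genes moved in 28 of 322 cases after quantile normalization anew and in 87 of 1932 when 1 array was left out. With only genes above the 25th percentile of means kept, the median percentile was 97.3 for markers, 97.1 for translocon, 98.3 for chaperones, 96.7 for ER-associated degradation, 94.7 for vesicles, 89.9 for plasma cell factors, 69.8 for immediate early factors, 31.0 for factors of other lineages, 75.4 for survival receptors, 88.9 for B cell receptor, 73.2 for memory molecules and 73.8 for pentose phosphate. It was 92.5 for TCA cycle, 95.8 for complex I, 97.5 for complexes III to V, 80.6 for sugar supply, 72.5 for cholesterol, 88.4 for tRNA synthetases, 99.73 for ribosomal proteins, 96.0 for proteasome, 77.3 for autophagy, 59.3 for BCL2 family, 80.4 for mitosis and 82.0 for DNA replication under the same setting. It was 79.3 for cell cycle inhibitors, 33.3 for basophils, 41.6 for dendritic cells, 38.6 for erythroid cells, 28.3 for T cells, 35.1 for NK cells, 44.7 for megakaryocytes, 32.0 for stroma and 24.5 for unrelated tissues under the same setting. After quantile normalization anew, the SD of the list mean was 0.12 for plasma cell factors, 0.11 for TCA cycle, 0.0788 for complex I, 0.0774 for complexes III to V, 0.17 for tRNA synthetases, 0.0300 for ribosomal proteins, 0.0825 for proteasome, 0.10 for autophagy, 0.13 for mitosis and 0.0337 for cell cycle inhibitors. Without predicted genes, small RNAs, receptor families and variable segments in the ranking, the median percentile was 91.2 for plasma cell factors, 40.0 for factors of other lineages, 96.4 for complex I, 97.9 for complexes III to V, 90.0 for tRNA synthetases, 99.77 for ribosomal proteins, 96.6 for proteasome, 77.4 for autophagy, 65.4 for BCL2 family, 83.1 for mitosis, 84.5 for DNA replication and 82.2 for cell cycle inhibitors. It was 47.7 for megakaryocytes and 28.2 for unrelated tissues under the same setting. With only genes above the 25th percentile of means kept, the mean level was 6.64 for factors of other lineages, 8.64 for homing receptors, 9.76 for MHC class II, 7.06 for basophils, 7.49 for dendritic cells, 6.70 for NK cells, 6.81 for megakaryocytes and 6.32 for unrelated tissues. With all probe sets of a gene averaged, the mean level was 8.32 for glycolysis, 11.99 for ribosomal proteins and 8.26 for cell cycle inhibitors. With all probe sets of a gene averaged, the median percentile was 96.6 for complex I, 97.9 for complexes III to V, 82.1 for amino acid supply, 99.78 for ribosomal proteins and 96.5 for proteasome. Without replicates 2 and 6 together, the median percentile was 87.7 for DNA replication. Leaving out each array in turn gave SDs of the list mean of 0.19 to 0.48 for antibody, 0.18 to 0.33 for B cell receptor, 0.11 to 0.21 for complex I, 0.11 to 0.21 for complexes III to V, 0.0303 to 0.0907 for ribosomal proteins, 0.57 to 1.16 for neutrophils, 0.15 to 0.33 for basophils, 0.27 to 0.62 for erythroid cells, 0.18 to 0.40 for T cells and 0.20 to 0.44 for stroma, and a median percentile of 29.8 to 46.2 for basophils. With the background set at the highest gene of unrelated tissues, 4557 genes lay above it in place of 7817. On the sense strand alone, the ERSE was in 6 secretion windows and 21 of all, ERSE-II in 7 of all, and the UPRE core in 6 and 102. Of these settings the filter removes low genes by construction, and for the others the cause was not tested. Array signal near the background level limits what can be said of low genes, and 6 arrays limit the precision of each SD.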

Other observations

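Antibody signal was highest on probe sets that name several genes, which the levels above leave out. A probe set shared by Iglv1, Iglc1 and Iglv2, of the lambda light chain that NP-binding antibodies of mice often carry, had a mean of 13.78 ± 0.11 (SD, n = 6), and another one for the same genes 12.97 ± 0.22. Probe sets that name Ighg3 and Igha with variable segments read 12.71 ± 0.45 and 12.38 ± 0.31. A probe set that names Igkc among kappa segments ran from 11.29 in replicate 6 to 12.88 in replicate 2. These signals cannot be given to 1 gene.

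Some variable segments differed widely between samples. Igkv4-91 was 11.82 in replicate 4 and between 4.49 and 4.93 on the other arrays, the largest SD of all genes (2.91). Igkv10-96 ran from 7.81 in replicate 4 to 12.79 in replicate 2, and Igkv4-55 from 6.19 in replicate 1 to 10.86 in replicate 2. A probe set shared by a pair of Igkv1-family segments was 13.17 in replicate 5 and 8.33 in replicate 6. A probe set shared by Ighv3-6 and Igha was 10.51 in replicate 1 and 4.92 in replicate 2. The high sample thus differed among these segments, while Igkv6-20 ran from 7.17 to 8.02. These probe sets were chosen after their values were seen.

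A probe set shared by the alpha globin genes read 11.74, 9.39, 12.59, 10.04, 11.30 and 9.75 in replicates 1 to 6, with replicates 1, 3 and 5 high. Baiap2l1 ranked 6 of all genes at 13.55 ± 0.09 from the chosen probe set, while its other probe sets read 11.17 and 4.91.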
